A study of Drosophila melanogaster with 20 samples.

Results

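The genes described here encode proteins that form, move, tether and sort transport vesicles. They were chosen by name alone: all spots with a single current gene symbol that begins with Vps, Rab, Sec, Syx, Snx, Arf, Arl, Cog, AP-, Exo, Trs or TRAPP in the style of these families, without the translocon subunit Sec61beta. The rule found 26 genes among the 2377 gene symbols on the array, carried by 60 of its 16896 spots. No gene of the Syx, Arf, Trs or TRAPP names was among them. Of the 26 genes, 25 were measured in enough extracts to be tested, and the exocyst subunit Sec15, with values in 9 of 12 extracts, was not. Vps51 was singled out because earlier results of these data were known, so its high place in the pyrethrin flies is a description here and carries no independent support.

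Whole adult Oregon-R females of Drosophila melanogaster, 4 to 10 days old and kept in 16 h of light, 8 h of dark and 60% relative humidity, were sprayed with an insecticide in ethanol or with the solvent alone, and total RNA was taken 6 h later from pools of about 240 flies. In the combination group the 2 mL of spray held 0.1 mg/mL of pepper seed extract (Piper nigrum, taken up in ethyl acetate) with 0.004 mg/mL of pyrethrin. In the pyrethrin group it held pyrethrin at 0.04 mg/mL, and in the pepper extract group the seed extract at 0.2 mg/mL. All sprays, those of the control flies included, were made in 99% ethanol. Pyrethrins are insecticides of chrysanthemum flowers that hold voltage-gated sodium channels open. Each dose of the combination was below that of the single sprays, so a difference between treatments is no test of an interaction.

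Each treatment had 4 RNA extracts, which are the replicates here, each set against an ethanol control extract on spotted cDNA arrays read in Cy3 and Cy5. The labels do not say that the extracts of a group came from separate cultures or spray runs, so p-values measure the spread between these extracts. Extracts of the combination and of the pepper extract were each hybridised on 2 arrays with the dyes exchanged, and those of pyrethrin on 1 array each, always with the treated RNA in Cy3. Pyrethrin replicates 1 and 2 shared 1 control extract, and replicates 4 and 5 shared another. Since whole flies were pooled, fewer cells of a type and less RNA per cell cannot be told apart.

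The values are log2 ratios, with the median of each array set to 0. The labels do not state the numerator, and the ratios were read as treated over control. A numerator set by sample is likelier than one set by channel. After the mean of each treatment and dye orientation was removed, the 2 arrays of an extract correlated positively in 8 of 8 extracts. Their mean r was 0.226 across features, which are not independent. Before that step they correlated negatively in 6 of 8. Extracts of 1 treatment also differed from each other, and combination replicates 4 and 6 correlated at -0.37 over 11329 features. The direction is therefore not settled, and the main results are also given with the ratios read by channel, as Cy5 over Cy3. If all ratios ran as control over treated, these correlations would be the same, and every sign below would turn. The arrays held 13953 to 16853 values each, and signal intensities, which would give the levels of the genes, were not used here, so differences between treatments are known but levels are not. Ratios of this kind carry no read depth, and the number of arrays limits their precision.

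Vesicles bud from a donor membrane with the help of coats and small GTPases of the Arf and Rab families, are caught at the target membrane by tethers, and fuse there through SNARE proteins. Of these large complexes, the exocyst acts at the plasma membrane, COG within the Golgi, GARP at the trans-Golgi network and HOPS at the late endosome and lysosome. In flies the same machinery serves synaptic transmission, yolk uptake in the ovary, gut absorption and the making of pigment granules.

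Taken as a group, the trafficking genes stayed close to the ethanol controls in all 3 treatments. The median log2 ratio of the 25 tested members was 0.02 after the combination (13 above 0 and 12 below), 0.04 after pyrethrin (17 above and 8 below) and -0.01 after the pepper extract (12 above and 13 below). The same medians over all 11526 features tested were 0.01, -0.01 and 0.00, with 53.7%, 48.6% and 51.4% of the features above 0. Read by channel, the medians of the members were 0.01 after the combination, -0.03 after pyrethrin and -0.05 after the pepper extract. This reading turns the sign of every pyrethrin array before the dye correction, so the turned median after pyrethrin is no separate result. The median size of a member's log2 ratio, without its sign, was 0.08, 0.08 and 0.04 in these 3 treatments, against 0.11, 0.11 and 0.08 over all features. The spread between extracts of a treatment was also narrower for the members, with a median pooled SD of 0.17, against 0.25 over all features. These comparisons are not like for like. Of the features tested, 2169 were gene symbols averaged over their spots, as the members were, and the rest were single spots. Averaging by itself narrows sizes and spreads, and its part in these differences was not tested.

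No member passed the test, limma's moderated test with Benjamini-Hochberg adjustment over all 11526 features at 0.05, in any treatment. The share of all features that passed was 0% after the combination, 0.0607% (7 features) after pyrethrin and 0% after the pepper extract. With no adjustment, at p under 0.05, 1 member (Cog8) was higher and 0 were lower after the combination, where 4.95% of all features were higher and 3.76% lower. After pyrethrin 2 members (Vps51 and Exo84) were higher and 0 lower, against 5.43% and 4.55% of all features. After the pepper extract 0 members were higher and 0 lower, against 1.8% and 1.47% of all features. Apart from Vps51, the smallest adjusted p of a member was 0.468 (Exo84 after pyrethrin).

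**Figure D1:**
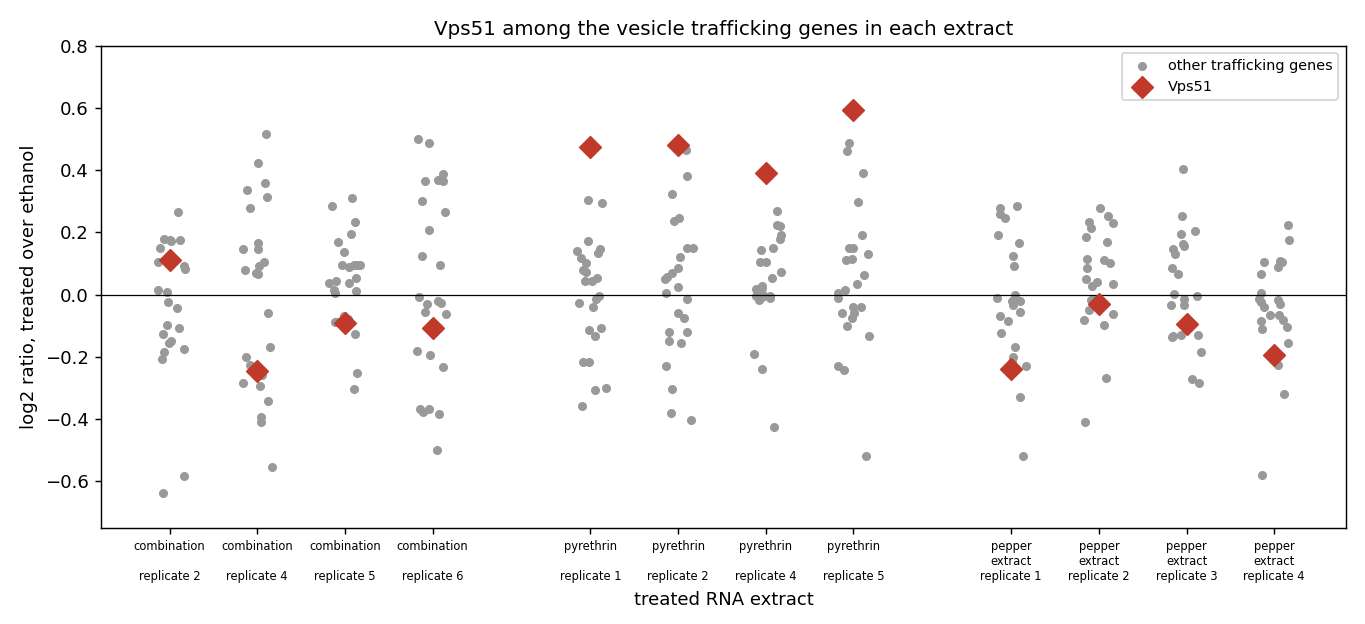
Log2 ratio of treated over ethanol RNA (vertical axis) for Vps51 (red diamonds) and the other measured trafficking genes (grey points, spread sideways only to be visible) in each of the 12 treated extracts (horizontal axis). Vps51 is the highest of the genes in all 4 pyrethrin extracts, from 0.39 to 0.59, and lies within the cloud in the 4 combination and 4 pepper extract samples.

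Vps51 had the highest log2 ratio of the group after pyrethrin and a middling or low one after the other sprays. It encodes a subunit of GARP, the complex that catches vesicles returning from endosomes at the trans-Golgi network, and is also part of the related EARP complex on recycling endosomes. In the combination extracts its log2 ratio was 0.11 in replicate 2, -0.25 in replicate 4, -0.09 in replicate 5 and -0.11 in replicate 6. In the pyrethrin extracts it was 0.48 in replicate 1, 0.48 in replicate 2, 0.39 in replicate 4 and 0.59 in replicate 5. In the pepper extract samples it was -0.24, -0.03, -0.09 and -0.19 in replicates 1 to 4. All pyrethrin extracts were thus above all 8 other extracts, while those of the combination and of the pepper extract overlapped. Of all features tested, 0.755% had every pyrethrin extract above every extract of the other treatments, and Vps51 was the 1 member among them. Every pyrethrin extract was below all others in 0.928% of the features and in 0 members.

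Members were ranked within each extract, from 1 for the highest. In the combination Vps51 ranked 7 of 25, 19 of 26, 23 of 26 and 18 of 26 in replicates 2, 4, 5 and 6. In pyrethrin it ranked 1 of 26, 1 of 26, 1 of 25 and 1 of 26 in replicates 1, 2, 4 and 5. The next gene in the pyrethrin extracts was Snx1 at 0.30 in replicate 1, Exo84 at 0.46 in replicate 2, Sec16 at 0.27 in replicate 4 and Snx27 at 0.49 in replicate 5. The runner-up was a different gene each time, and in replicate 2 it lay close behind. Before the dye correction Snx1 was at 0.09 in replicate 1. In the pepper extract Vps51 ranked 22 of 24, 20 of 26, 16 of 24 and 21 of 25 in replicates 1 to 4. Against all features of the same extract, Vps51 stood above 22.9% to 69.2% of them in the combination extracts. It stood above 95.3%, 92.5%, 90.9% and 97.8% in pyrethrin replicates 1, 2, 4 and 5, and above 14.9% to 45.0% in the pepper extract samples.

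The fitted log2 ratio of Vps51 was -0.08 ± 0.09 after the combination, 0.49 ± 0.09 after pyrethrin and -0.14 ± 0.09 after the pepper extract (SE, n = 4 extracts each). The pyrethrin value corresponds to a 1.40-fold higher level than in ethanol flies, with a 95% confidence interval of 0.29 to 0.68 on the log2 scale. Its limma p was 9.31e-05, which ranked 15 of 11526 features, and its adjusted p of 0.0716 missed the threshold. The adjusted p ran from 0.0113 to 0.768 over the alternatives tried. It passed with no dye correction of the pyrethrin arrays (log2 ratio 0.40, limma adjusted p = 0.047), with the dye effect taken from the pepper extract pairs alone (0.52, 0.0113) or from the combination pairs alone (0.45, 0.0378), and with no block for the control extract (0.49, 0.0499). In these settings, in that order, 132, 151, 142 and 15 of all features passed after pyrethrin, against 7 in the main fit. A pass there thus does not set Vps51 apart. With all 20 arrays in 1 fit with a dye term, Vps51 was at 0.49 after pyrethrin and did not pass (limma adjusted p = 0.618). The main fit took the dye correction, shared by all pyrethrin extracts, as known. Its standard error and p therefore leave out the uncertainty of that correction. Read by channel, the Vps51 log2 ratio was 0.04 after the combination, -0.52 after pyrethrin and 0.12 after the pepper extract, and none of these passed.

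**Figure D2:**
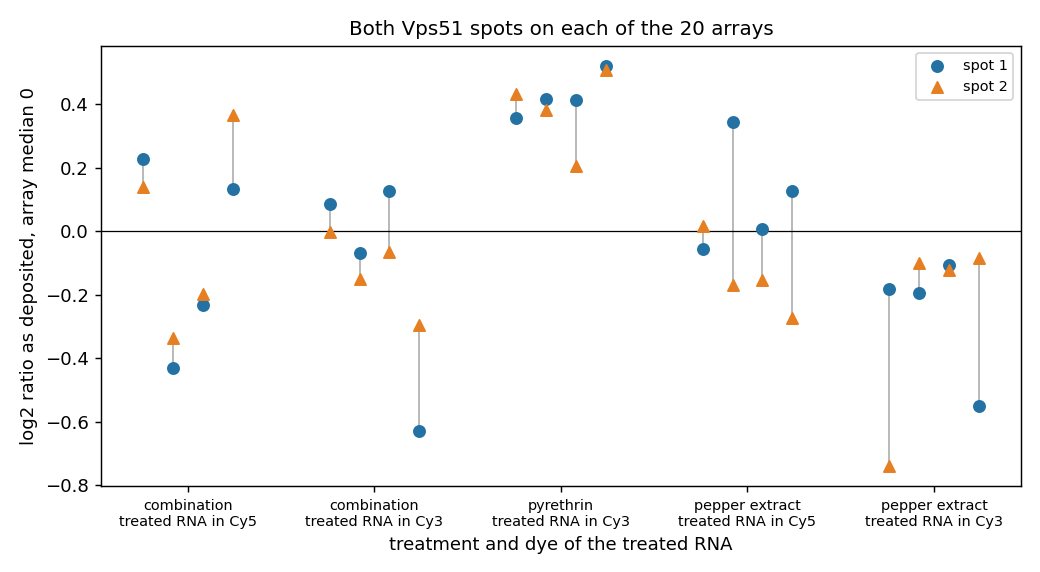
Log2 ratio of each of the 2 Vps51 spots (circles and triangles, joined by a line for each array) on the 20 arrays, as deposited with the array median set to 0, by treatment and by the dye of the treated RNA; arrays of a column stand side by side in replicate order. The pyrethrin arrays were hybridised in the Cy3 orientation alone, and their spot means, from 0.31 to 0.51, lie above those of all 16 other arrays.

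Vps51 was carried by 2 neighbouring spots of 1 cDNA clone, which differed by a median of 0.09 on the log2 scale over the 20 arrays. Before the dye correction, which added 0.08 to each pyrethrin value, the mean of both spots was 0.40, 0.40, 0.31 and 0.51 on the arrays of pyrethrin replicates 1, 2, 4 and 5. The highest of the 16 other arrays was at 0.25, so that all 4 pyrethrin arrays lay above all arrays of the other treatments in either dye orientation. The same held at spot 1 alone for 4 of 4 pyrethrin arrays, and at spot 2 alone for 3 of 4. Fitted singly, spot 1 gave 0.53 (limma adjusted p = 0.0628) and spot 2 gave 0.44 (0.139) after pyrethrin. On single arrays the dye effect of each gene stays in the ranks, and the amount that its correction would add was 0.08 for Vps51, -0.16 for Cog8 and 0.27 for AP-1sigma. Among the 12 arrays with the treated RNA in Cy3, taken without correction, Vps51 ranked 1, 4, 2 and 2 in pyrethrin replicates 1, 2, 4 and 5. The genes above it there were Sec8, Exo84 and Snx27 in replicate 2, Cog8 in replicate 4 and Snx27 in replicate 5. Its rank on the Cy3 arrays was 9 to 22 in the combination and 17 to 26 in the pepper extract.

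Both control extracts of the pyrethrin flies gave a like value. Without the arrays of the control shared by replicates 1 and 2, Vps51 stood at 0.49 (limma adjusted p = 0.213), and without those of the control shared by replicates 4 and 5 at 0.48 (0.768). These fits, and those without single replicates, had no control block. Leaving out single pyrethrin replicates moved the log2 ratio between 0.45 and 0.52. The extracts were labelled as females. Of 16 listed genes of the male reproductive tract, 4 were tested (ocn, dj, Acp36DE and Acp53C14a), and after pyrethrin 4 of 4 had a mean above 0, with a median of 0.25, and ocn passed at 1.05 (limma adjusted p = 0.0476). By extract the genes differed: after pyrethrin ocn and dj were above 0 in 4 of 4 extracts, and Acp36DE and Acp53C14a in 2 of 4 each. Ocn ran from 0.87 to 1.26 there, and Acp36DE reached 1.33 in replicate 1. The mean of these 4 genes was 0.28, -0.21, -0.10 and -0.12 in combination replicates 2, 4, 5 and 6, and 0.65, 0.21, 0.35 and 0.40 in pyrethrin replicates 1, 2, 4 and 5. It was -0.17, 0.20, 0.13 and -0.20 in pepper extract replicates 1 to 4. Their part in the Vps51 result was not tested.

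Of the genes set beside Vps51 at the Golgi, Arl5, AP-1sigma and scat did not share its pattern by value. No other GARP subunit was among the genes tested, so the complex as a whole was not examined. Arl5, an Arf-like GTPase that helps to bring GARP to the trans-Golgi network, had log2 ratios of 0.16 ± 0.10 after the combination, -0.02 ± 0.10 after pyrethrin and 0.01 ± 0.10 after the pepper extract (SE, n = 4 each). Its extracts were all above 0 in the combination, at 0.09, 0.09, 0.10 and 0.37, and scattered around 0 elsewhere. AP-1sigma, the small subunit of the clathrin adaptor of the trans-Golgi network, averaged -0.09, 0.02 and -0.04 in the combination, pyrethrin and the pepper extract. AP-1sigma had the largest dye effect of the group: its mean was 0.14 on the combination arrays with the treated RNA in Cy5 and -0.32 on those with it in Cy3, and 0.28 and -0.36 on those of the pepper extract. The GARP subunit scat, the fly Vps54, is on the array under its own name and missed the filter with values in 10 of 12 extracts. Scat ran from -0.32 to 0.54 in the combination, from -0.22 to 0.26 in pyrethrin and from 0.11 to 0.40 in the 2 pepper extract samples measured. The 4 pyrethrin extracts of scat lay on both sides of 0, at -0.22, 0.02, 0.26 and 0.05 in replicates 1, 2, 4 and 5. Before the dye correction the same arrays were all above 0, at 0.06, 0.29, 0.53 and 0.32, so the sign of scat in replicate 1 turns on the correction.

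Cog8, a subunit of the COG complex that tethers vesicles moving backwards through the Golgi, had the highest mean of the group after the combination. Its log2 ratio was 0.18, 0.10, 0.20 and 0.50 in combination replicates 2, 4, 5 and 6. It was -0.13, 0.24, 0.22 and -0.06 in pyrethrin replicates 1, 2, 4 and 5, and 0.12, -0.27, -0.10 and -0.02 in pepper extract replicates 1 to 4. All combination extracts were above 0, with replicate 6 well above the rest, and overlapped both other treatments. The fitted mean was 0.24 ± 0.10 after the combination (SE, 4 extracts), 0.07 after pyrethrin and -0.07 after the pepper extract. For the combination limma's p was 0.0299 and its adjusted p 0.545. Without combination replicate 6 the mean was 0.16, with an adjusted p of 0.52 in limma. The value differed by dye: Cog8 lay between 0.37 and 0.74 on the combination arrays with the treated RNA in Cy3 and between -0.16 and 0.26 on those with it in Cy5. Read by channel, Cog8 was at -0.25 after the combination, with a limma adjusted p of 0.0201, so that both its direction and its call turn on the direction of the ratio. In that reading 1918 of all features passed after the combination, so a pass there does not set Cog8 apart.

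**Figure D3:**
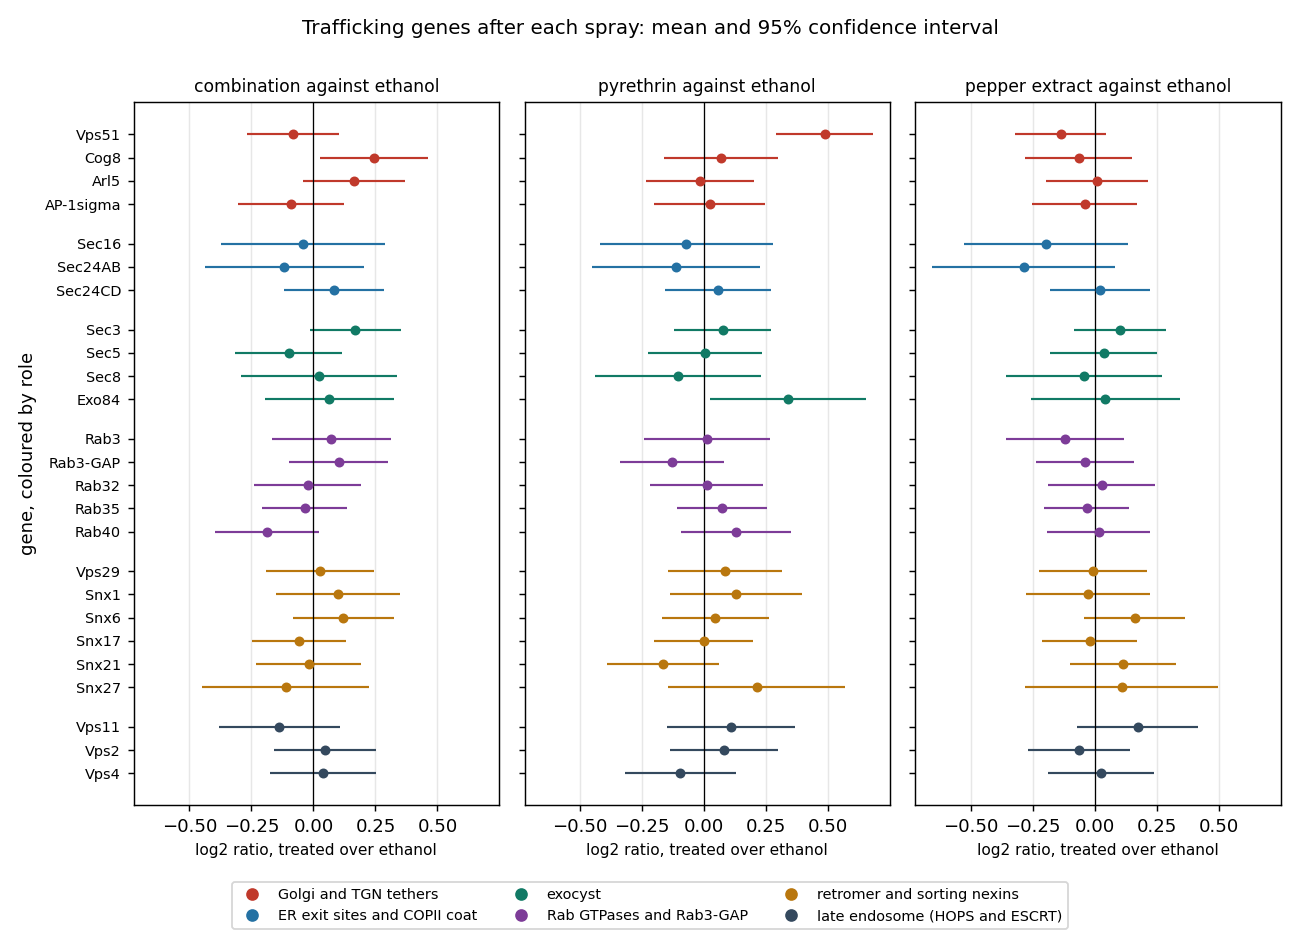
Mean log2 ratio of treated over ethanol RNA (horizontal axis) with its 95% confidence interval for the 25 tested trafficking genes (rows, grouped and coloured by role) after the combination, pyrethrin and the pepper extract. The intervals of Vps51 and Exo84 after pyrethrin and of Cog8 after the combination do not include 0; no member passed after adjustment over all features.

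Of the genes of the early secretory pathway, Sec16 and Sec24AB varied widely between extracts, and none had an unadjusted p under 0.05 in any comparison. Sec16, the scaffold of the sites where vesicles leave the endoplasmic reticulum, was below 0 in all pepper extract samples, at -0.00, -0.41, -0.27 and -0.11, with a mean of -0.20 ± 0.15 (SE, n = 4). In the combination Sec16 ranged from -0.59 to 0.39 and in pyrethrin from -0.38 to 0.27, so the pepper extract values lay inside the range of the combination, and replicate 2 of the pepper extract lay below the lowest pyrethrin extract. Read by channel, the pepper extract mean of Sec16 was 0.07. Sec24AB, a cargo adaptor of the COPII coat, had the lowest mean of any member after the pepper extract, -0.29 ± 0.17 (SE, n = 3), from values of -0.52, 0.23 and -0.58. It averaged -0.12 after the combination and -0.11 after pyrethrin. Sec24CD, the other fly COPII cargo adaptor, averaged 0.08, 0.06 and 0.02 in the combination, pyrethrin and the pepper extract. The pooled SD over the 3 treatments was 0.35 for Sec16 and 0.33 for Sec24AB, against 0.15 for Sec24CD.

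The exocyst, which docks secretory vesicles at the plasma membrane, was represented by 5 of its subunits, 4 of them tested. Sec3 was above 0 in 11 of 12 extracts, and averaged 0.17 ± 0.09 after the combination, 0.07 ± 0.09 after pyrethrin and 0.10 ± 0.09 after the pepper extract (SE, n = 4 each). Its combination values were 0.18, 0.08, 0.05 and 0.37 in replicates 2, 4, 5 and 6, its pyrethrin values 0.04, 0.12, 0.02 and 0.12, and its pepper extract values 0.09, 0.28, -0.03 and 0.07. The 3 sets overlapped. No member had the same sign in all 12 extracts.

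Exo84, another subunit of the complex, stood next to Vps51 after pyrethrin. Its log2 ratio was 0.26, -0.17, 0.17 and -0.01 in the combination extracts, and 0.08, 0.46 and 0.46 in pyrethrin replicates 1, 2 and 5, with no value in replicate 4. In the pepper extract it was 0.19, 0.25 and -0.32 in replicates 1, 2 and 4. Pyrethrin replicates 2 and 5 were above all other extracts, and replicate 1 lay among them. The fitted pyrethrin mean was 0.34 ± 0.15 (SE, 3 extracts), and by channel it was -0.25. In limma its p was 0.0369 and its adjusted p 0.468. The 2 spots of Exo84 differed by a median of 0.41 on the log2 scale, against 0.09 for those of Vps51. Exo84 is the immediate neighbour of the member Vps2 in the RefSeq annotation, and the annotated genes do not overlap.

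The other exocyst subunits showed no common movement. Sec8 ranged from -0.38 to 0.52 in the combination and from -0.52 to 0.38 in pyrethrin, the widest range of the complex, and averaged 0.02, -0.11 and -0.05 in the combination, pyrethrin and the pepper extract. Sec5 averaged -0.10, 0.00 and 0.03 in these treatments. The mean of Sec5 after the combination rested on replicate 4, at -0.39, since the other 3 extracts lay between -0.03 and 0.01. Sec15 was measured at -0.41, -0.07 and -0.23 in combination replicates 4, 5 and 6, from -0.36 to 0.22 in the pyrethrin extracts and at 0.23 and -0.03 in 2 pepper extract samples. As a set, the 4 tested subunits had medians of 0.04, 0.04 and 0.04 in the combination, pyrethrin and the pepper extract, with 3 of 4 above 0 in each.

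Rab GTPases mark membranes and recruit motors and tethers. Rab40, a Rab with a SOCS box that ties it to ubiquitin ligases, had the lowest mean of the group after the combination. It was at -0.02, -0.26, -0.09 and -0.38 in combination replicates 2, 4, 5 and 6, and at -0.03, 0.05, 0.10 and 0.39 in pyrethrin replicates 1, 2, 4 and 5. In the pepper extract it was at -0.17, 0.12, 0.15 and -0.04. The combination extracts were all below 0 and overlapped those of both other treatments. The fitted means were -0.19 ± 0.10 after the combination, 0.13 ± 0.10 after pyrethrin and 0.01 ± 0.10 after the pepper extract (SE, n = 4 each). As with Cog8, the combination value differed by dye, from -0.65 to -0.23 on the arrays with the treated RNA in Cy3 and from -0.12 to 0.19 on those with it in Cy5. By channel Rab40 was at 0.25 after the combination, with a limma adjusted p of 0.0329, in a reading where 1918 of all features passed.

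Rab35, which acts in endocytic recycling and on the actin cytoskeleton, was the steadiest member, with a pooled SD of 0.08. It was at -0.13, 0.15, -0.13 and -0.03 in the combination extracts, and at 0.05, 0.09, 0.11 and 0.03 in the pyrethrin extracts. In the pepper extract it was at -0.02, -0.08, -0.01 and -0.03, so that all pyrethrin extracts were above 0 and all pepper extract samples below. The difference was 0.10 (95% confidence interval -0.14 to 0.35) with a limma adjusted p of 0.887. The opposite signs depend on the dye. With the treated RNA in Cy3, Rab35 was above 0 in both treatments, at 0.09 to 0.16 after pyrethrin and 0.04 to 0.15 after the pepper extract. On the pepper extract arrays with the treated RNA in Cy5, Rab35 lay between -0.31 and -0.08. Its 2 clones gave means of 0.08 and -0.15 in the combination, 0.13 and 0.01 in pyrethrin, and -0.03 and -0.04 in the pepper extract.

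The synaptic vesicle GTPase Rab3 averaged 0.07, 0.01 and -0.12 in the combination, pyrethrin and the pepper extract. Rab3-GAP, part of the complex that switches Rab3 off, is needed for homeostatic plasticity at the fly neuromuscular junction. Rab3-GAP averaged 0.10 ± 0.09, -0.13 ± 0.10 and -0.04 ± 0.09 in these treatments (SE, n = 4 each). It was above 0 in all combination extracts, at 0.18, 0.06, 0.04 and 0.12, and its 3 clones had means of 0.12, 0.07 and 0.12 there. In pyrethrin it was at -0.22, -0.40, -0.01 and 0.11, with clone means of -0.15, -0.15 and -0.06. The pyrethrin extracts overlapped those of the combination. Rab32, which acts in the biogenesis of lysosome-related pigment granules, averaged -0.02, 0.01 and 0.03.

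The retromer and its sorting nexins send receptors from endosomes back to the Golgi or to the cell surface. Vps29, a core retromer subunit, stayed between -0.02 and 0.00 in the 4 pepper extract samples and ranged from -0.34 to 0.30 in the combination, with means of 0.03, 0.08 and -0.01 in the combination, pyrethrin and the pepper extract. Its pepper extract arrays lay at 0.11 to 0.22 with the treated RNA in Cy5 and at -0.25 to -0.13 with it in Cy3. Without the dye correction, which added 0.14 to each pyrethrin value, the pyrethrin mean of Vps29 was -0.05. Snx1 averaged 0.10, 0.13 and -0.03, and without the dye correction, which added 0.22 to each pyrethrin value, its pyrethrin mean was -0.09. The means of Snx6, its partner in membrane bending, were 0.12, 0.04 and 0.16. Snx6 was at 0.28, -0.03, 0.21 and 0.17 in the pepper extract, where its mean was the second highest of the group, and by channel its mean there was -0.14. Snx17, a cargo adaptor for recycling in mammals, averaged -0.06, -0.00 and -0.02.

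Snx21 and Snx27 differed most in this set. Snx21 was below 0 in all pyrethrin extracts, at -0.04, -0.12, -0.43 and -0.08, with a mean of -0.17 ± 0.10, and averaged -0.02 after the combination and 0.11 ± 0.10 after the pepper extract (SE, n = 4 each). Before the dye correction the pyrethrin arrays of Snx21 were at 0.03, -0.05, -0.35 and -0.01 in replicates 1, 2, 4 and 5. Without pyrethrin replicate 4 its corrected mean was -0.08. Snx27, a sorting nexin with a PDZ domain, was at -0.64, 0.42, 0.14 and -0.37 in the combination, at -0.11, 0.32, 0.14 and 0.49 in pyrethrin, and at -0.02, 0.40 and -0.06 in pepper extract replicates 2, 3 and 4. Its pooled SD of 0.36 was the widest of the group, and its means of -0.11, 0.21 and 0.11 all lay within that spread of 0.

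At the late endosome, Vps11, a core subunit of the HOPS tether, had the highest mean of the group after the pepper extract. It was at -0.16, 0.36, -0.25 and -0.50 in the combination, at 0.13, 0.15, -0.00 and 0.15 in pyrethrin, and at 0.28, 0.05, 0.25 and 0.10 in the pepper extract. All pepper extract samples were above 0, while the combination spanned both ends. The means were -0.14 ± 0.11, 0.11 ± 0.12 and 0.17 ± 0.11 (SE, n = 4 each). The combination mean was -0.30 without replicate 4 and -0.02 without replicate 6. Without the 2 arrays whose titles name another study, the pepper extract mean was 0.02. The ESCRT-III subunit Vps2 averaged 0.05, 0.08 and -0.07, and its 2 clones had means of -0.07 and 0.16 in the combination and of 0.17 and -0.02 in pyrethrin. Vps4, the ATPase that takes ESCRT-III apart, averaged 0.04, -0.10 and 0.02.

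**Figure D4:**
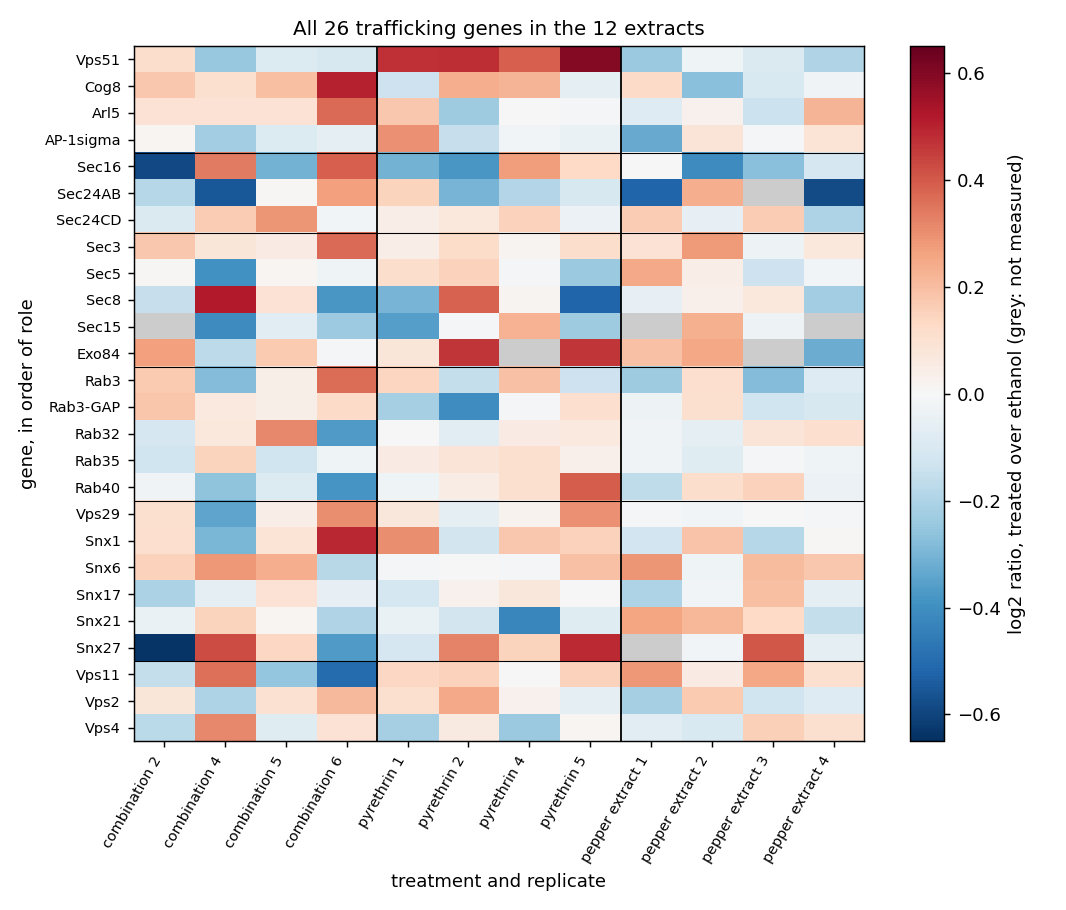
Log2 ratio of treated over ethanol RNA (colour scale; grey where not measured) for all 26 trafficking genes (rows, in order of role, separated by lines) in the 12 extracts (columns, by treatment and replicate). Vps51 is red in all 4 pyrethrin extracts, and combination replicates 4 and 6 hold opposite colours for several genes, such as Sec8, Snx1 and Vps11.

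Within an extract, the SD over the members was 0.22, 0.29, 0.15 and 0.30 in combination replicates 2, 4, 5 and 6, against 0.17 to 0.24 in the pyrethrin extracts and 0.16 to 0.21 in the pepper extract samples. Between extracts, combination replicates 4 and 6 correlated at -0.36 over 25 members, close to their value over all features. The other combination pairs ran from -0.46 (replicates 2 and 4) to 0.32 (replicates 2 and 5, and 2 and 6), and the pepper extract pairs from -0.25 to 0.37 over 22 to 25 members. Replicates 4 and 6 of the combination share the treatment, the array type and the dye exchange, and had different control extracts. Sec8 was at 0.52 in replicate 4 and -0.38 in replicate 6, Snx1 at -0.29 and 0.49, and Vps11 at 0.36 and -0.50. The pyrethrin extracts, which share their dye correction, correlated positively in every pair over the members, from 0.13 to 0.39. Over all features the same pairs ran from -0.03 to 0.29, with replicates 1 and 2 and replicates 2 and 5 below 0. The members include Vps51, which was high in all 4 pyrethrin extracts and was singled out with earlier results known. Its part in the positive correlations was not tested, so they carry no independent support.

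Counts of members with 1 direction in every measured extract stayed small. After the combination 4 members were above 0 throughout (Cog8, Arl5, Sec3 and Rab3-GAP) and 1 was below (Rab40), while 8.13% and 7.55% of all features did so. After pyrethrin 4 members were above 0 throughout (Vps51, Sec3, Exo84 and Rab35) and 1 below (Snx21), against 9.51% and 10.1% of all features. Before the dye correction Snx21 was at 0.03 in pyrethrin replicate 1. After the pepper extract 1 member was above 0 throughout (Vps11) and 3 below (Vps51, Sec16 and Rab35), against 7.29% and 6.8%. The member lists of the treatments differed apart from Sec3, above 0 throughout in both the combination and pyrethrin, and Vps51 and Rab35, which held opposite signs in pyrethrin and the pepper extract. Every pyrethrin extract was above 0 and every pepper extract sample below 0 in these 2 members and in 0.573% of all features, and the reverse held in 0 members and in 0.59% of all features. For Rab35 the arrays with the treated RNA in Cy3 were above 0 in both treatments. The Vps51 sign in the pepper extract also differed by dye. Its arrays there ran from -0.07 to 0.09 with the treated RNA in Cy5 and from -0.46 to -0.11 with it in Cy3.

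**Figure D5:**
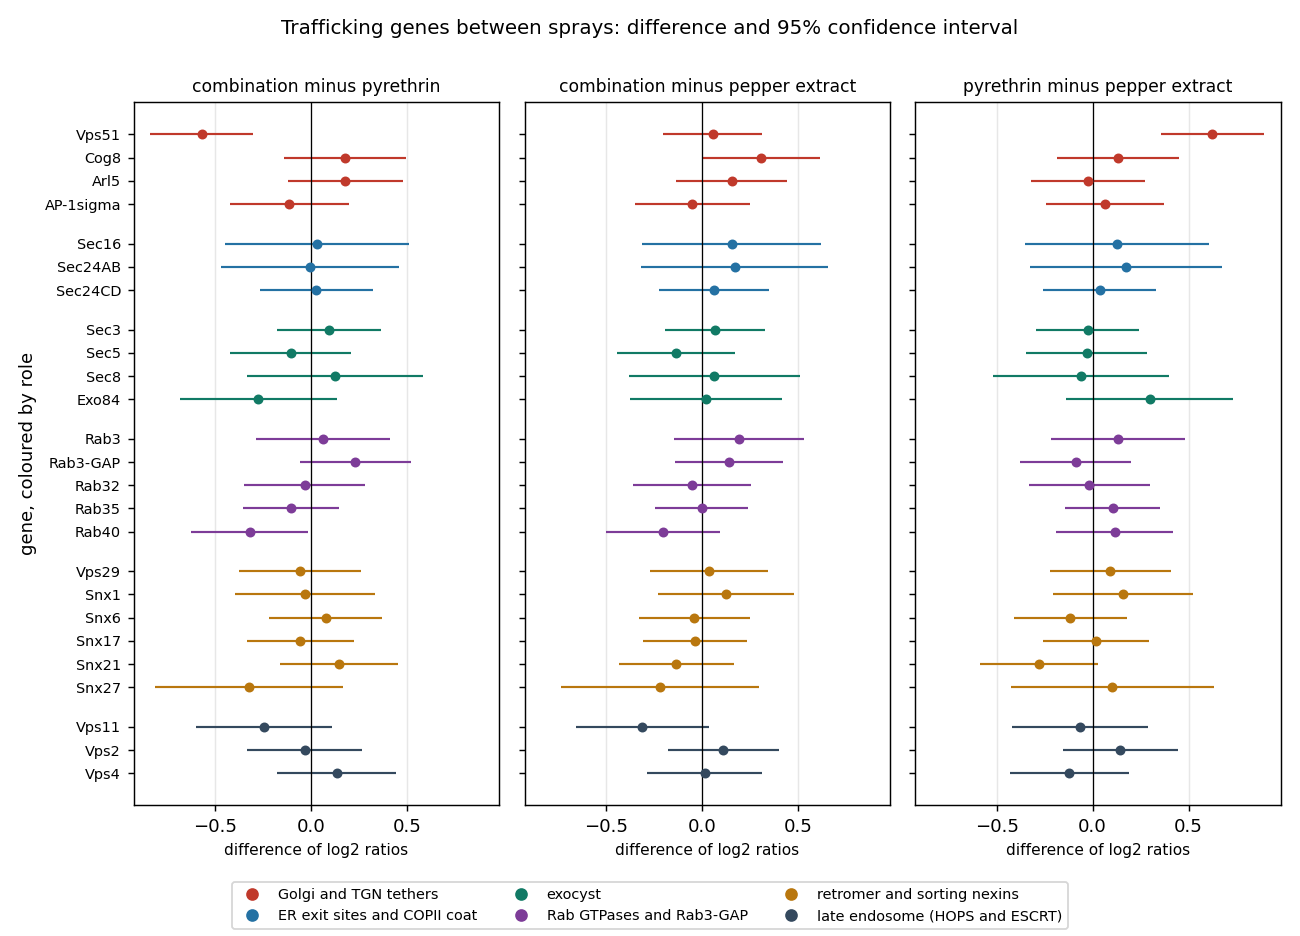
Difference of mean log2 ratios between treatments (horizontal axis) with its 95% confidence interval for the 25 tested trafficking genes (rows, grouped and coloured by role). The Vps51 interval lies below 0 for the combination minus pyrethrin, at -0.57, and above 0 for pyrethrin minus the pepper extract, at 0.62; no member passed after adjustment over all features.

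The direct comparisons between treatments asked whether the sprays differed from each other. These comparisons share their samples, so their values are not independent. In the combination minus pyrethrin, 0 members passed after adjustment, where 0% of all features passed, and 2 (Vps51 and Rab40) had an unadjusted p under 0.05, against 12.1% of all features. Vps51 differed by -0.57 ± 0.13 (SE, 95% confidence interval -0.84 to -0.30, limma adjusted p = 0.213), and the 4 combination extracts, from -0.25 to 0.11, lay below the 4 pyrethrin extracts, from 0.39 to 0.59. Rab40 differed by -0.32 ± 0.14 (limma adjusted p = 0.396), with overlapping extracts. On the 12 arrays with the treated RNA in Cy3 these differences were -0.53 for Vps51 and -0.47 for Rab40 (limma adjusted p = 0.659 each).

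In the combination minus the pepper extract, 0 members passed after adjustment, as did 0% of all features, and 1 member (Cog8) had an unadjusted p under 0.05, against 4.63% of all features. Cog8 differed by 0.31 ± 0.14 (SE, limma adjusted p = 0.978), and Vps11 by -0.31 ± 0.16 and Rab40 by -0.20 ± 0.14 with the same adjusted p. By channel Cog8 was at -0.18 and Rab40 at 0.31, and on the Cy3 arrays alone Rab40 was at -0.51. The Vps11 difference ran from -0.47 to -0.06 over the alternatives. Vps51 differed by 0.06 with a 95% confidence interval of -0.20 to 0.32. In pyrethrin minus the pepper extract, 0 members and 0% of all features passed after adjustment, and 1 member (Vps51) had an unadjusted p under 0.05, against 5.62% of all features. Vps51 differed by 0.62 ± 0.13 (SE, 95% confidence interval 0.36 to 0.89, limma adjusted p = 0.621), with no overlap between the extracts. Snx21 differed by -0.28 ± 0.14 (limma adjusted p = 0.87) and Exo84 by 0.30 ± 0.20 (0.874). By channel the 3 Vps51 differences were 0.56, -0.08 and -0.64, with the opposite sign in each.

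Trafficking genes that carry other names were compared from a list of 111 genes, of which 21 were on the array and 20 were tested. None passed after adjustment in limma in any treatment. At an unadjusted p under 0.05 there were 2 after the combination, lap at -0.22 and Crag at 0.24, 1 after pyrethrin, spri at 0.25, and 0 after the pepper extract. The product of lap helps to assemble clathrin coats, Crag is an exchange factor for Rab GTPases, and spri is an exchange factor for Rab5. Of the 20 genes, 11, 8 and 5 were above 0 in the combination, pyrethrin and the pepper extract, with medians of 0.01, -0.01 and -0.05. The highest means after the combination were those of Rbsn-5, a Rab5 effector, at 0.25 and of the SNARE Ykt6 at 0.24, and the lowest those of lap and of Tpst, a sulfotransferase of the Golgi, at -0.16. After pyrethrin spri and eIF3m, a translation factor listed because it was found in a secretion screen, were highest, at 0.25 and 0.17, and the neuronal SNARE nSyb at -0.14 and Tango11 at -0.13 were lowest. After the pepper extract eIF3m at 0.16 and Rabex-5, an exchange factor for Rab5, at 0.04 were highest, and spri at -0.13 and Rbsn-5 at -0.11 were lowest. The highest of these genes after pyrethrin, spri, thus lay below the 0.49 of Vps51.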

How the data were processed

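Per the labels' protocols, 80 µg of total RNA per extract were labelled directly and compared on spotted cDNA arrays. The authors deposited 1 log2 ratio per spot. The base was read from the values, since the largest, 14.3 in size, exceeds 11.1, the natural logarithm of the largest 16-bit signal. Neither the normalization nor the numerator is given in the sources used here. In the deposited values 5.36% were missing, and the titles of 2 pepper extract arrays name another study. Groups came from the source names. From these values the following was computed. Array medians were subtracted, spots of a symbol averaged, and dye-exchanged arrays averaged. Each pyrethrin array was corrected by the mean dye effect of the exchanged pairs, over at least 4 pairs. Features with values in at least 3 of 4 extracts of every treatment were tested. The 12 extracts were fitted together in limma (version 3.58.1, with statmod 1.5.0, under R 4.3.3). Pairs had a weight of 1.02 and single arrays one of 0.966, extracts with a shared control were blocked (correlation 0.0646), and tests were two-sided. The procedure was run on simulated data without the control block and with changes larger than that of any member here. All 5666 spots with a single symbol were matched by gene identifier to RefSeq, and gene lists were resolved through it. Named members are Vps51, those with an unadjusted p under 0.05, the 5 highest and 5 lowest per treatment, and 3 per difference; further members were given by role. The members, role groups and lists were chosen with earlier results of these data known. Alternatives changed the dye correction, direction, centring, scaling, filter, block, weights, spots, arrays and extracts used, and 1, the arrays with the treated RNA in Cy3 alone, was added after seeing the data. Marker lists of other tissues had 1 to 3 tested genes each. The 1 ovary gene tested averaged -0.29, 0.04 and -0.15 after the combination, pyrethrin and the pepper extract. Over the same treatments the medians of the 3 neuronal genes were 0.04, -0.06 and -0.03, and those of the 3 muscle genes -0.02, 0.14 and 0.15. The 1 fat body gene averaged 0.12, -0.43 and 0.10, the 1 gut gene -0.01, -0.09 and -0.11, and the 2 hemocyte genes had medians of -0.02, 0.01 and -0.16. None of these passed limma's adjusted threshold, nor did a replicate number pair the extracts: of 8 same-numbered pairs, 1 correlated above 0.1 in its deviations from the group means.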

Additional observations from a re-analysis of the deposited data

Results flagged for a closer look

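In groups of 4 extracts, the gap of the highest or lowest extract to its neighbour was set against the range, by Dixon's criterion. Of 72 such groups of the trafficking genes, 4 held an extract that stood apart, and chance gives about 1 in 20. Arl5 was at 0.37 in combination replicate 6, with the other 3 extracts at 0.09 to 0.10. Sec5 was at -0.39 in combination replicate 4, with the others between -0.03 and 0.01. Snx6 was at 0.19 in pyrethrin replicate 5, with the others between -0.01 and 0.00. Vps11 was at -0.00314 in pyrethrin replicate 4, with the others between 0.13 and 0.15.

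In 2 genes every pyrethrin extract was above 0 and every pepper extract sample below 0, as in 0.573% of all features. Vps51 differed by 0.62 between pyrethrin and the pepper extract, with a limma adjusted p of 0.621. Rab35 differed by 0.10, with a limma adjusted p of 0.887. The standard error of the Rab35 difference was 0.12, and its pyrethrin values all carry the same dye correction. On the arrays with the treated RNA in Cy3, Rab35 was above 0 in both treatments. The pepper extract arrays of Vps51 ran from -0.07 to 0.09 with the treated RNA in Cy5 and from -0.46 to -0.11 with it in Cy3.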

How the results depend on the processing

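After pyrethrin 7 features passed in limma, none of them a trafficking gene. The count was 0 with all 20 arrays in 1 fit with a dye term, 132 without dye correction, 151 and 142 with the dye effect from the pepper extract or combination pairs alone, 90 by channel, 15 with arrays scaled, 13 for features in all 12 extracts, 4 for features in at least 2 extracts per treatment, 15 without the control block, 12 without weights and 0 without the arrays of control extract 4. Leaving out single extracts, with no control block, gave 0 to 13, and in particular 0 without pyrethrin replicate 1, 0 without replicate 4 and 1 without replicate 5. Vps51 after pyrethrin passed without dye correction (0.40), with the dye effect from the pepper extract pairs (0.52) or the combination pairs (0.45), and without the control block (0.49), and was at 0.45 to 0.52 with single extracts left out. Its median rank in the pyrethrin extracts, 1 as reported, was 2 without dye correction, 1.5 with the combination pairs alone, 25.5 by channel, 2 on the Cy3 arrays alone and 1.5 at spot 2 alone.

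The other counts, all 0 as reported, moved less often. By channel they were 1918 after the combination, 2264 after the pepper spray, 43 for the combination minus pyrethrin, 235 for the combination minus the pepper extract and 9 for pyrethrin minus the pepper extract. The combination minus pyrethrin gave 1 without dye correction, 32 and 36 with the dye effect from the pepper extract or combination pairs alone, and 1 without the arrays of control extract 3. Pyrethrin minus the pepper extract gave 1 without dye correction and 1 with the combination pairs alone. With single extracts left out, counts were 0 to 3 after the combination (3 without its replicate 4), 0 to 3 for the combination minus pyrethrin (3 without combination replicate 5) and 0 to 1 for pyrethrin minus the pepper extract (1 without pepper extract replicate 4).

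By channel the sign turned for Vps51 in the combination (0.0416), pyrethrin (-0.52), the pepper extract (0.12), the combination minus pyrethrin (0.56), the combination minus the pepper extract (-0.0785) and pyrethrin minus the pepper extract (-0.64), for Cog8 after the combination (-0.25) and against the pepper extract (-0.18), for Exo84 after pyrethrin (-0.25) and for Rab40 in the combination minus pyrethrin (0.37). The single genes listed are those with an unadjusted p under 0.05 as reported. Of all 35 member results followed besides Vps51, 24 had the opposite sign by channel. This reading turns the sign of all arrays with the treated RNA in Cy3. The small Vps51 difference between the combination and the pepper extract, 0.06, was -0.0222 at spot 1 alone and -0.00869 to 0.111 with single extracts left out; the cause was not tested.

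Replicate numbers did not pair the extracts (correlations of deviations from -0.33 to 0.15 over 8 same-numbered pairs). With the number as a replicate block, Vps51 differed by -0.58, 0.04 and 0.63 in the 3 comparisons between treatments, and all 3 counts stayed at 0. The 4 extracts per treatment, the missing dye exchange for pyrethrin, its 2 shared control extracts and the unstated numerator limit these results.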
